A study of Mus musculus with 24 samples.

Results

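The daily RNA rhythms that remained in mouse liver after loss of the clock gene Arntl (also called Bmal1) from hepatocytes were measured in 12 HepKO libraries, of 24 libraries in all. HepKO mice carried floxed Bmal1 on both chromosomes and 1 copy of an albumin-driven Cre transgene (Alb::Cre), so that recombination was directed to hepatocytes. Whether all other liver cells kept the gene was not measured here. The 12 HepWT libraries, used for comparison, came from mice with the same floxed Bmal1 alleles and no Cre, and no group had Cre with an intact gene. All mice were C57BL/6, 8 to 12 weeks old, and were given food at night only. In each genotype, livers were taken at zeitgeber time (ZT, h after lights on) 2, 6, 10, 14, 18 and 22, with 2 libraries a time. The members were every library whose label gives the HepKO genotype. No label says that the 2 libraries of a time came from separate animals, so each p covers the spread between libraries, which may be technical. A feeding rhythm was present in both genotypes, so rhythms driven by food, by hormones and by the clocks of other cells cannot be told apart by this design.

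In the mammalian clock, ARNTL (BMAL1) pairs with CLOCK or NPAS2 and activates genes with an E-box, among them the Per, Cry and Nr1d genes, whose proteins then repress the loop. REV-ERB receptors (Nr1d1, Nr1d2) repress Arntl. Liver RNA also follows signals from outside the hepatocyte, such as meals, body temperature and glucocorticoids, and these act through factors including SREBP, HSF1 and the glucocorticoid receptor.

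A gene was taken to cycle when a 24 h cosine and sine, fitted together to the 12 libraries of a genotype, passed an adjusted p of 0.05 (edgeR quasi-likelihood F test, Benjamini-Hochberg over 17275 tested genes). Amplitude, given with its SE, is how far the fitted curve rises above its own mean (log2 units), and peak is the fitted ZT of the maximum. Levels are CPM (counts scaled to a common library size, with TMM factors), and they compare samples for 1 gene, not genes with each other. Of the HepKO libraries, 5 were shallower, with totals of 12997689 to 16910415 counts. These were the second replicates of all times but ZT2, and the remaining 7 libraries held 24000331 to 29769983 counts. The same 5 columns, and no others, carry an added suffix in the deposited header that the sources used here do not explain. Whether they are repeat runs or subsets of libraries is therefore not known, and each HepKO p takes them as libraries like the rest. The first principal component of the HepKO libraries held 20.1% of the variance and placed the 4 libraries of ZT6 and ZT10 below 0 and the 6 libraries of ZT14, 18 and 22 above it. The 2 ZT14 libraries stood furthest from each other, with a chi-square per degree of freedom of 42.2 against 8.86 to 21.5 at the other times. In bulk liver, fewer cells of a type and less RNA per cell cannot be told apart.

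A rhythm of 24 h was found in 2720 genes of HepKO liver, 15.7% of those tested. In HepWT liver, 3868 genes cycled, 22.4% of those tested. Peaks in HepKO fell into 2 clusters, one in the middle of the day and one in the middle of the night. The window of ZT4 to 8 held 659 genes (24.2% of those called, 3.81% of those tested) and that of ZT16 to 20 held 774 (28.5% of those called, 4.48% of those tested). Fewer peaks fell just before each cluster, with 224 genes at ZT0 to 4 (8.24% of those called, 1.3% of those tested) and 254 at ZT12 to 16 (9.34% of those called, 1.47% of those tested). ZT8 to 12 held 14.4% of those called (2.27% of those tested), and ZT20 to 24 held 15.3% (2.41% of those tested). HepWT had the same 2 fullest windows, with 818 genes (21.1% of those called) at ZT4 to 8 and 895 (23.1%) at ZT16 to 20. In HepWT the windows of ZT0 to 4 and ZT12 to 16 held 629 (16.3%) and 599 (15.5%) genes. The shares of the genotypes were not tested against each other.

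**Figure D1:**
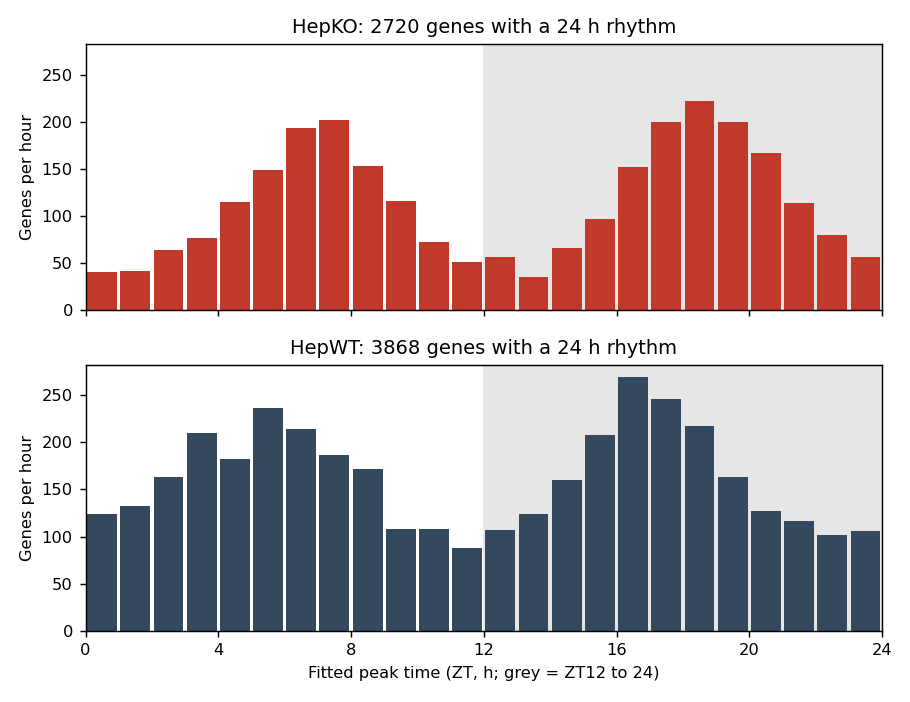
Number of genes per hour of fitted peak time (x axis, ZT in h; y axis, genes) among the 2720 genes that cycled in HepKO liver (upper panel) and the 3868 that cycled in HepWT liver (lower panel); grey marks ZT12 to 24. HepKO peaks gather around ZT4 to 8 (659 genes) and ZT16 to 20 (774 genes), which are also the fullest windows in HepWT (818 and 895 genes).

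Most of the remaining rhythms were shallow. The median amplitude of the 2720 genes was 0.313 (interquartile range 0.222 to 0.478), 623 genes reached 0.5, 144 reached 1 and 16 reached 2. The 3868 HepWT genes had a median amplitude of 0.373, and 363 of them reached 1. Over all 17275 genes, called or not, the median amplitude was 0.191 in HepKO and 0.225 in HepWT. Median amplitudes of the HepKO windows ran from 0.277 at ZT8 to 12 to 0.347 at ZT20 to 24. At the threshold, Recql4 (adjusted p = 0.049988) and Eaf1 (0.049997) were the last genes called, and Ccbe1 (0.050068) and Rapgef2 (0.0502) the first not called. Without the 5 HepKO libraries of lower depth, which leaves 7 libraries and 4 residual degrees of freedom, 76 genes were called. Of 31 clock and functional gene lists described or tested here, 30 had a called gene, and in that fit the count of each of the 30 fell by more than 1.5 times, to 0 in 16 of them. In the same fit, 2712 of the 2720 genes (99.7%) kept their peak within 2 h, and 2224 had an unadjusted p below 0.05. Their median amplitude was 0.312. The 7 libraries are among the 12 that chose these genes, so this follows in part from that choice. A count of 0 in that fit does not show that a list lacks rhythms.

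A check that did not use the HepKO calls came from the 3868 genes that cycled in HepWT. When the 6 first replicates and the 6 second replicates of HepKO were fitted apart, the 2 series peaked within 3 h of each other in 2705 of these genes (69.9%), against 48.3% of all genes tested. The HepKO peak lay within 3 h of the HepWT peak in 2895 of them (74.8%), against 50.7% of all genes. For the 2226 genes that cycled in HepWT and were not called in HepKO, the 2 HepKO replicate series peaked within 3 h of each other in 51.7%, near the 48.3% of all genes. The HepKO peak was within 3 h of the HepWT peak in 64.7% of them, and their median amplitude was 0.16 in HepKO and 0.36 in HepWT. The 48.3% and 50.7% of all genes include genes that cycled in HepKO, so they are not levels for genes without a rhythm. Unlike the 3868, these 2226 genes were chosen by the HepKO call itself. Low agreement between the HepKO series and a low HepKO amplitude follow in part from that choice. Neither value shows that these genes lack a HepKO rhythm.

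Part of the core clock still cycled. Of 15 core clock genes tested, 8 were called in HepKO (53.3%, beside 15.7% of all genes), against 13 in HepWT. The HepKO count was 5 in 1 model of both genotypes and 4 without the 5 libraries of lower depth. The genes called were the REV-ERB receptors Nr1d1 and Nr1d2, the period genes Per1, Per2 and Per3, the repressors Bhlhe41 and Ciart, and Arntl itself. Genes not called included Npas2, Cry1, Cry2, Rora, Bhlhe40 and Clock, and Clock had an amplitude of 0.07 in HepKO and 0.57 in HepWT. The median amplitude of the 15 genes was 0.364 in HepKO and 2.05 in HepWT.

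The deleted gene was read first. Arntl (ENSMUSG00000055116, chr7:113207465-113314126 of GRCm38, plus strand) had 15.1 and 16.3 CPM at ZT2, 13.7 and 12.7 at ZT6, 11.9 and 10.3 at ZT10, 10.4 and 12.0 at ZT14, 13.2 and 15.4 at ZT18, and 17.7 and 15.9 at ZT22 in HepKO liver. HepWT liver ranged from 1.27 CPM at ZT10 to 45.9 CPM at ZT2. The 4 HepKO libraries of ZT10 and ZT14 were the lowest, and mean levels were highest at ZT22 and ZT2. The same times were lowest and highest in HepWT, over a range of 33.7-fold between time means, against 1.52-fold in HepKO. The amplitude was 0.32 ± 0.05 in HepKO and 2.28 ± 0.26 in HepWT, and the rhythms differed (adjusted p = 0.00207). The peaks, ZT23.4 in HepKO and ZT23.5 in HepWT, were close. The HepKO call was lost when both genotypes were fitted in 1 model that shares their spread (adjusted p = 0.504). The counts cover the whole gene, so reads of exons outside the floxed part and of cells without Cre both enter.

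Nr1d1 (REV-ERB alpha, a repressor; chr11:98767932-98775333, minus strand) kept its time of day at a lower level. It had 1.21 and 2.85 CPM at ZT2, 6.41 and 6.59 at ZT6, 6.44 and 6.15 at ZT10, 2.55 and 2.29 at ZT14, 1.25 and 0.593 at ZT18, and 0.692 and 0.653 at ZT22 in HepKO. HepWT had 50.3 and 47.7 CPM at ZT6 and 0.666 and 0.536 CPM at ZT22. The 4 HepKO libraries of ZT6 and ZT10 lay above all other HepKO libraries and below every HepWT library of ZT2 to ZT10. The amplitude was 1.72 ± 0.15 with a peak at ZT8.3 (adjusted p = 0.000193) in HepKO, and 2.87 ± 0.27 with a peak at ZT7.6 in HepWT. The difference between the rhythms did not pass (adjusted p = 0.189). The other REV-ERB gene, Nr1d2, had an amplitude of 1.10 ± 0.09 at ZT8.8 in HepKO and 1.57 ± 0.11 at ZT10.2 in HepWT (adjusted p of the difference 0.0527). Nr1d1 overlaps Thra on the other strand, and the sources used here do not say whether counting used the strand. The level of Nr1d1 is uncertain to that extent.

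Dbp, which encodes a PAR bZIP factor that binds D-boxes and is a direct clock target (chr7:45705088-45710203, plus strand, overlapping Sphk2 on the other strand), had 3.35 and 3.63 CPM at ZT2, 8.50 and 9.44 at ZT6, 18.1 and 19.4 at ZT10, 6.26 and 6.36 at ZT14, 2.99 and 3.10 at ZT18, and 3.22 and 2.61 at ZT22 in HepKO. Both HepKO libraries of ZT10 stood above the rest, as in HepWT, where ZT10 held 127 and 147 CPM and ZT2 1.05 and 1.03 CPM. The amplitude of Dbp was 1.37 ± 0.13 in HepKO and 3.26 ± 0.25 in HepWT, and its rhythm differed between genotypes (adjusted p = 0.00172). Tef, a second PAR bZIP factor, cycled with 0.22 ± 0.04 at ZT10.8 in HepKO and with 1.35 ± 0.14 at ZT12.8 in HepWT (adjusted p of the difference 0.000435).

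Per2, a repressor of the loop (chr1:91415982-91459324, minus strand), had 19.5 and 22.8 CPM at ZT2, 16.9 and 23.4 at ZT6, 22.2 and 26.0 at ZT10, 74.5 and 75.3 at ZT14, 59.5 and 58.0 at ZT18, and 37.5 and 49.0 at ZT22 in HepKO. The HepKO and HepWT maxima were of like size, since HepWT had 94.7 and 85.5 CPM at ZT14, whereas the minima were not, with 3.65 to 6.02 CPM in the 4 HepWT libraries of ZT2 and ZT6. The amplitude was 1.02 ± 0.10 at ZT16.8 in HepKO and 2.28 ± 0.16 at ZT16.0 in HepWT (adjusted p of the difference 0.0041). Per3 cycled with 0.49 ± 0.08 at ZT14.5 in HepKO and 2.05 ± 0.23 at ZT13.5 in HepWT (adjusted p of the difference 0.00717). Per1 reached 0.80 ± 0.19 at ZT12.7 in HepKO, with 19.5 CPM in 1 ZT14 library and 7.79 CPM in the other. Its call was lost without either ZT2 library (0.71 and 0.76), either ZT10 library (0.73 and 0.76) or the first ZT14 library (0.65).

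Bhlhe41 (DEC2) and Ciart, both repressors, were close to the detection limit, with means of 0.307 and 0.697 CPM in HepKO. Ciart had 35 and 29 counts at ZT10, 48 and 11 at ZT14, and 1 and 0 at ZT2, and peaked at ZT13.2 (amplitude 2.05 ± 0.36). Bhlhe41 peaked at ZT10.5 (2.1 ± 0.37). Rgs16, a regulator of G protein signalling from the clock output list, was called on 15 counts over all 12 libraries, and its amplitude is not interpreted.

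Of 10 clock output genes, 7 cycled in HepKO and 10 in HepWT, and 5 of the 10 rhythms differed between genotypes. The HepKO count was 3 in 1 model of both genotypes and 1 without the 5 libraries of lower depth. Nampt, which makes a precursor of NAD, had 51.1 and 53.4 CPM at ZT2, 54.6 and 50.9 at ZT6, 53.3 and 60.7 at ZT10, 68.7 and 60.1 at ZT14, 81.5 and 74.6 at ZT18, and 72.9 and 63 at ZT22 in HepKO. The ZT18 pair was highest in HepKO, whereas the highest HepWT libraries were those of ZT14, where the first library had 210 CPM. The rhythm was 0.28 ± 0.05 at ZT17.8 in HepKO and 1.10 ± 0.10 at ZT15.1 in HepWT (adjusted p of the difference 0.000141). Usp2, a deubiquitinase, cycled with 0.73 ± 0.13 at ZT15.5 in HepKO and 2.18 ± 0.37 at ZT14.2 in HepWT (adjusted p of the difference 0.19).

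Printed next is the upstream sequence of a pair of clock genes that still cycled in HepKO, since both hold motifs of the clock's own factors. Each is the 250 bases before the RefSeq gene start (GRCm38.p6), 5′ to 3′ on the gene's strand. Capitals mark E-boxes (CACGTG) in Ciart, at chr3:95882229-95882478 (minus strand), and D-boxes (TTANGTAA, searched on both strands) in Per3, at chr4:151044666-151044915 (minus strand).
Ciart: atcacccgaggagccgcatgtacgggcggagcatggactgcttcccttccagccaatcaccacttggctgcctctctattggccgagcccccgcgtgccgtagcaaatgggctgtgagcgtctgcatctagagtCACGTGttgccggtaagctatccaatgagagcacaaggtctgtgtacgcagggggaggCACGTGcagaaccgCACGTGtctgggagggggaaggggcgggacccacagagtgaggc
Per3: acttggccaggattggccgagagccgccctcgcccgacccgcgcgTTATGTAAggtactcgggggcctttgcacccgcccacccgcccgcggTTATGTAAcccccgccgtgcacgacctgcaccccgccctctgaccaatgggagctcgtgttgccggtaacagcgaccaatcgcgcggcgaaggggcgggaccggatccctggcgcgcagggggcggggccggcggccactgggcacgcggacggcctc
The window searched also held the 50 bases after the start. An E-box was present in 9.91% of the 11407 promoters matched to tested genes and in 10.6% of the 2106 promoters of genes that cycled in HepKO. For the D-box the shares were 1.59% and 1.09%. The shares among all cycling genes were close to those of all promoters, and a match is a description of the letters only. In the core clock list an E-box was present in 4 of 12 promoters, and in 3 of the 7 of genes that cycled in HepKO. A D-box was present in 1 of the 12, that of Per3.

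Among the clock genes not called in HepKO, some varied little over the day and others did not. Cry1, a repressor, had between 54.7 and 70.9 CPM in the 12 HepKO libraries and ranged from 5.45 to 55.1 CPM in HepWT. Its amplitude was 0.08 ± 0.05 in HepKO and 1.54 ± 0.10 in HepWT (adjusted p of the difference 5.82e-08), although without the second ZT14 library the HepKO rhythm was called with an amplitude of 0.145. Npas2, the partner of ARNTL, had 14.6 to 28.5 CPM in HepKO and 0.109 to 8.52 CPM in HepWT, with amplitudes of 0.19 ± 0.10 and 3.37 ± 0.22 (adjusted p of the difference 1.54e-08). Its HepKO rhythm was called without the second ZT14 library (0.30). In HepKO, Npas2 was above its HepWT maximum in every library, and Cry1 lay near its own. Bhlhe40 (DEC1, a repressor) spanned a wider range, with 47.9 to 117 CPM in HepKO and time means 1.98-fold apart. Its HepKO cosine did not pass (0.36 ± 0.13, adjusted p = 0.147), the test over 6 times did (adjusted p = 0.0474), and its amplitude in HepWT was 1.01 ± 0.17 (adjusted p of the difference 0.176).

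**Figure D2:**
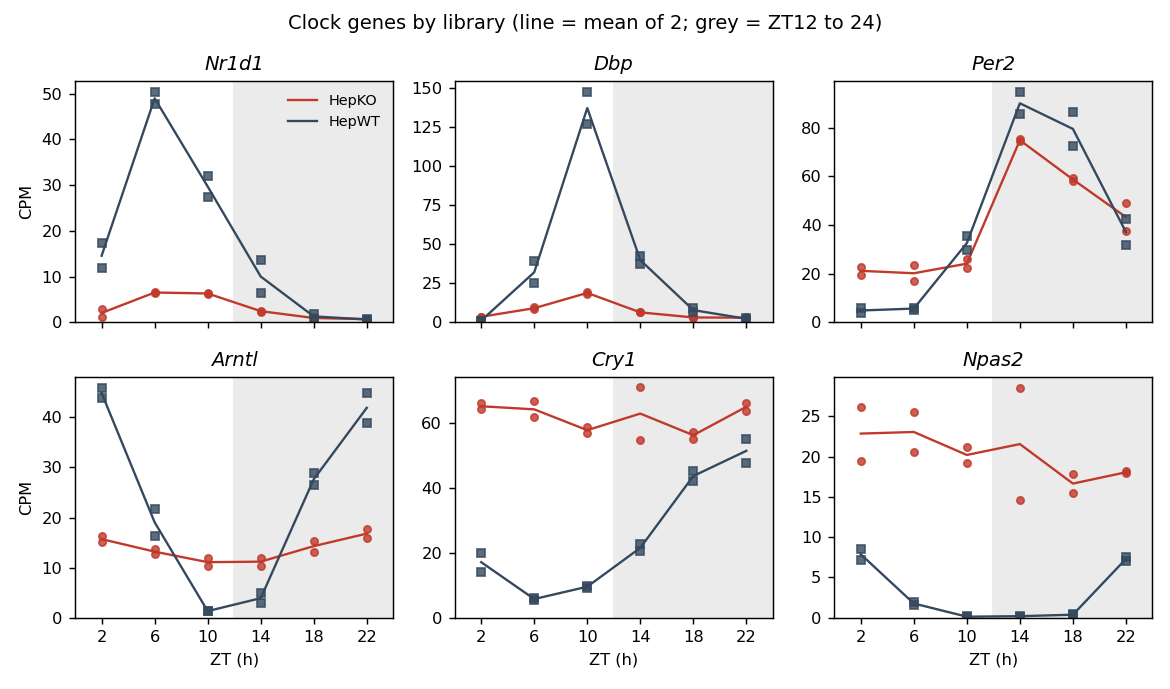
Level of 6 clock genes (y axis, CPM) against ZT (x axis, h) in HepKO (red circles) and HepWT (blue squares); each symbol is 1 library, lines join the means of 2 libraries, and grey marks ZT12 to 24. Nr1d1, Dbp and Per2 rise and fall at the same times in both genotypes, while Cry1 (54.7 to 70.9 CPM) and Npas2 (14.6 to 28.5 CPM) show no called rhythm in HepKO.

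Cytosolic chaperones formed the list with the largest share of cycling genes. Of 24 genes, 20 cycled in HepKO (83.3%, beside 15.7% of all genes), 14 of them with a peak at ZT16 to 20, 4 at ZT12 to 16 and 2 at ZT20 to 24. In HepWT 19 cycled, 18 were called in both genotypes, and none of the 24 rhythms differed between genotypes at an adjusted p of 0.05. Over all genes that test passed in 1.49%, so a count of 0 in a list of this size is near the share of all genes. The median amplitude over the 24 genes was 0.458 in HepKO and 0.626 in HepWT, beside 0.191 and 0.225 over all genes. The count was 15 to 20 when each library was left out in turn and 0 of 24 without the 5 libraries of lower depth.

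Hspa1b, an inducible HSP70 (chr17:34956436-34959238, minus strand), had 5.57 and 14 CPM at ZT2, 6.60 and 10.5 at ZT6, 7.88 and 7.71 at ZT10, 80.1 and 70 at ZT14, 29.6 and 17.8 at ZT18, and 7.78 and 6.09 at ZT22 in HepKO. HepWT had 69.0 and 57.3 CPM at ZT14 and 3.90 to 9.05 CPM at ZT2, 6, 10 and 22. Both ZT14 libraries of either genotype stood above every library of every other time, and the HepKO mean of ZT14 was 10.8 times that of ZT22, its lowest time. The fitted amplitude was 1.45 ± 0.32 in HepKO and 1.64 ± 0.37 in HepWT (adjusted p of the difference 0.955). Hspa1b and Hspa1a are nearly identical, so reads can be split between them.

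Hsp90ab1, the constitutive HSP90 (chr17:45567775-45573271, minus strand), had 665 and 741 CPM at ZT2, 589 and 581 at ZT6, 564 and 569 at ZT10, 841 and 831 at ZT14, 913 and 950 at ZT18, and 782 and 867 at ZT22 in HepKO. All 6 HepKO libraries of ZT14 to 22 lay above all 6 of ZT2 to 10, a change of 1.64-fold between the highest and lowest time. HepWT changed by 2.03-fold. The cochaperones Ahsa1, Stip1 and Fkbp4 followed with amplitudes of 0.37 ± 0.04, 0.59 ± 0.08 and 0.52 ± 0.07 and peaks between ZT19.4 and ZT19.9. Hsf1, which encodes the heat shock factor itself, was not called (amplitude 0.07), and neither were Hspd1 (0.10), Dnaja2 (0.07) and Stub1 (0.10). These 4 complete the list and were named after their values were seen.

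The upstream bases of a pair of these genes show the heat shock element searched for (GAANNTTC, in capitals), which is bound by HSF1. Each is the 250 bases before the RefSeq start on the gene's strand (GRCm38.p6), for Hspa1b at chr17:34959239-34959488 (minus strand) and for the small heat shock protein Hspb1 at chr5:135887669-135887918 (plus strand). Hspb1 was chosen for its 2 elements after values were seen, and it cycled with an amplitude of 0.57 at ZT20.2.
Hspa1b: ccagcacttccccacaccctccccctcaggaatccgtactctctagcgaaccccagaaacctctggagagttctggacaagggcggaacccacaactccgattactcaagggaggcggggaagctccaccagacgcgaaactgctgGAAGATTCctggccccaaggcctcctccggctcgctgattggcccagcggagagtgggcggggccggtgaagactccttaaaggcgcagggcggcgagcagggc
Hspb1: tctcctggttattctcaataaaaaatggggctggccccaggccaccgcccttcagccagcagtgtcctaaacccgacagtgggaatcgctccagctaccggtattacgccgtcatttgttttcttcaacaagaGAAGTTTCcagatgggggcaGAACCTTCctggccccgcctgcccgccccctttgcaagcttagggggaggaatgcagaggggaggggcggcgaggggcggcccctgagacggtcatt
Within the 300-base windows, the element was present in 10 of 20 promoters of the chaperone list, against 5.84% of all 11407 promoters and 5.37% of those of cycling genes.

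RNA-binding proteins and splicing factors that respond to temperature peaked by day or by night. Of 16 genes, 8 cycled in HepKO and 9 in HepWT, with HepKO peaks of 2 genes at ZT4 to 8, 3 at ZT12 to 16 and 3 at ZT16 to 20, and no rhythm differed between genotypes at an adjusted p of 0.05. Cirbp, the cold-inducible RNA-binding protein (chr10:80165985-80172786, plus strand), had 15.1 and 12.2 CPM at ZT2, 18.1 and 12.2 at ZT6, 18.4 and 20.5 at ZT10, 7.05 and 8.02 at ZT14, 6.78 and 8.63 at ZT18, and 9.17 and 6.24 at ZT22 in HepKO. The 6 libraries of ZT2 to 10 all lay above the 6 of ZT14 to 22, the mirror image of Hsp90ab1. Its amplitude was 0.72 ± 0.12 at ZT6.8 in HepKO and 0.85 ± 0.09 at ZT6.1 in HepWT. Rbm3, a second cold-inducible protein, peaked at ZT12.5 (0.35 ± 0.05), and the splicing factors Srsf3 and Tra2a at ZT17.4 (0.35 ± 0.06) and ZT18.1 (0.32 ± 0.06).

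Genes of protein folding in the endoplasmic reticulum cycled in 17 of 25 cases in HepKO (68.0%), 12 of them with a peak at ZT16 to 20. In HepWT 10 cycled, and no rhythm of the 25 differed between genotypes at an adjusted p of 0.05, beside 1.49% of all genes. The HepKO count fell to 10 without the first ZT6 library, 11 without the second, 11 without the first ZT18 library and 0 without the 5 libraries of lower depth. A 12 h component beside the 24 h one, which draws the curve away from a single cosine, passed in 68 genes, 0.394% of those tested, and 12 of the 68 were among these 25 (48.0% of the list). The 6 HepKO time means had more than 1 maximum in 53 of the 68 genes, and in 8 of the 12. The other 4, Dnajb11, Hsp90b1, Dnajc3 and Hyou1, had a single maximum. The median 12 h amplitude of the list was 0.26, against 0.124 over all genes.

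The 5 genes with the smallest p in the 12 h test were Creld2 (a stress-induced folding factor), Hspa5 (BiP, the main chaperone of the compartment), Manf (a secreted stress-induced factor), Hspa13 (an HSP70 relative) and Gfpt1 (first enzyme of the hexosamine pathway). Creld2 (chr15:88819646-88826683, plus strand) had 48.4 and 46.1 CPM at ZT2, 23.5 and 31.3 at ZT6, 23.6 and 16.7 at ZT10, 118 and 126 at ZT14, 96.8 and 105 at ZT18, and 34.6 and 31.9 at ZT22 in HepKO. The main maximum at ZT14 and ZT18 was followed by a second, lower one at ZT2, where both libraries lay above all 4 of ZT22 and ZT6. In HepWT, ZT14 held 140 and 188 CPM, and the 2 ZT2 libraries were 97.2 and 21.4 CPM, so the second maximum was seen in 1 of the 2. The 24 h amplitude of Creld2 was 0.99 ± 0.24 and the 12 h amplitude 0.91 ± 0.06 (adjusted p = 0.000467).

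Hspa5 (chr2:34771970-34777547, plus strand) had 1071 and 1167 CPM at ZT2, 596 and 580 at ZT6, 682 and 552 at ZT10, 1846 and 1726 at ZT14, 1566 and 1609 at ZT18, and 917 and 935 at ZT22 in HepKO. In HepWT it had 1666 and 644 CPM at ZT2 and 1697 and 2044 at ZT14. Its 4 HepKO libraries of ZT14 and ZT18 were above all others, and the ZT2 pair came next. The 24 h amplitude was 0.69 ± 0.15 in HepKO and 0.72 ± 0.22 in HepWT (adjusted p of the difference 0.999), and the 12 h amplitude in HepKO was 0.53 ± 0.04 (adjusted p = 0.000612). Over all genes, leaving out each library gave 8 to 132 with a 12 h component and 1830 to 2783 with a 24 h rhythm. Creld2, Hspa5 and Manf were chosen by their small p in the 12 h test, which favours stable 12 h calls. Their 24 h calls were less stable. That of Hspa5 was lost without either ZT6 library (0.66 and 0.65), that of Manf likewise (0.71 and 0.695), and that of Creld2 without the first ZT6 library (0.96) or either ZT18 library (1.01 and 0.98). In 1 model of both genotypes the adjusted p of the 24 h rhythm was 0.083 for Creld2, 0.063 for Hspa5 and 0.055 for Manf.

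The promoters of Hspa5 and Creld2 hold the ER stress element (CCAAT, then 9 bases of any kind, then CCACG, on either strand; in capitals), to which ATF6 binds with NF-Y. Both are the 250 bases before the RefSeq start on the plus strand of GRCm38.p6, at chr2:34771840-34772089 for Hspa5 and chr15:88819396-88819645 for Creld2, where the element reads in reverse.
Hspa5: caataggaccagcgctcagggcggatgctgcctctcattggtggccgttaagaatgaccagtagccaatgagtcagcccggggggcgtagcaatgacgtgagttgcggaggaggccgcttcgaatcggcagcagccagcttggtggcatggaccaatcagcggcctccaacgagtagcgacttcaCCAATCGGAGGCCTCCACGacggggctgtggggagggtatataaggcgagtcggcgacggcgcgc
Creld2: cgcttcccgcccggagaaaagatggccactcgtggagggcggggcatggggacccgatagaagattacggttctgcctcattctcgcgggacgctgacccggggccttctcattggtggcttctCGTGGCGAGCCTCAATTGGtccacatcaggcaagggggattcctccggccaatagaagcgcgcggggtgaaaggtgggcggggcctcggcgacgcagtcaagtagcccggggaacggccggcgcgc
The element was present in 9 of 21 promoters of the list, against 0.184% of all 11407 promoters and 0.475% of those of cycling genes. It contains a CCAAT box, which was present in 18 of the 21 and in 39.0% of all.

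A test that assumes no curve (HepKO change over 6 times) passed in 2065 genes (12.0% of those tested). Of these, 1561 also passed the 24 h cosine test, and 504 did not. The 504 included Dnajb9, an Hspa5 cochaperone, Syvn1, a ubiquitin ligase that marks misfolded proteins, and Rbm10, a splicing factor. Dnajb9 had 76.1 and 73.4 CPM at ZT2, 31.3 and 26.6 at ZT6, 54.3 and 60.8 at ZT10, 111 and 162 at ZT14, 69.4 and 47.4 at ZT18, and 38.3 and 40.6 at ZT22 in HepKO. The ZT2 pair lay above the pairs of ZT22 and ZT6, as with Creld2, and the 12 h amplitude was 0.80 ± 0.09 (adjusted p = 0.00527). Of the 68 genes with a 12 h component, 42 reached its maximum 2 to 4 h after lights on and again 12 h later. The count of 68 was unstable. It was 14 or 8 without the first or second ZT2 library, 28 or 42 at ZT6, 29 or 14 at ZT10, 132 or 43 at ZT14, 36 or 39 at ZT18 and 19 or 32 at ZT22, and 1638 genes had an unadjusted p below 0.05. The count of 2065 was 1186 or 1218 without the first or second ZT10 library and 1141 or 1288 without those of ZT18. The 12 h calls of the 5 genes named and of Dnajb9, Syvn1 and Rbm10 held without any 1 library. These genes were chosen for a small p in the 12 h or 6-time test of the same libraries, which favours that outcome.

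**Figure D3:**
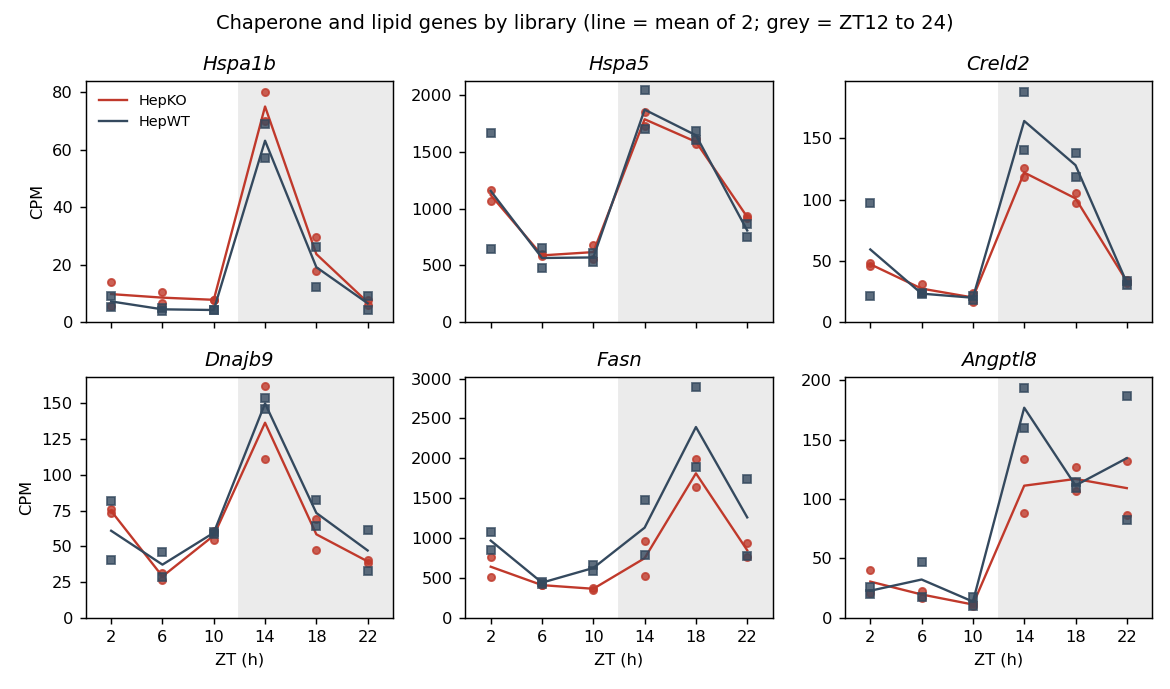
Level of 6 genes (y axis, CPM) against ZT (x axis, h) in HepKO (red circles) and HepWT (blue squares); each symbol is 1 library, lines join the means of 2 libraries, and grey marks ZT12 to 24. Hspa1b peaks at ZT14, Hspa5, Creld2 and Dnajb9 show a second, lower HepKO maximum at ZT2, and Fasn peaks at ZT18.

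Cholesterol synthesis and uptake was a block of night genes. Of 25 genes, 16 cycled in HepKO (64.0%), and 15 of these peaked at ZT16 to 20. In HepWT 8 cycled, 7 were called in both, and 1 of the 25 rhythms differed between genotypes, beside 1.49% of all genes. The median amplitude over all 25 genes was 0.421 in HepKO and 0.289 in HepWT. The HepKO count was 9 without the first ZT18 library, 10 without the second ZT6 library and 2 without the 5 libraries of lower depth. Mvd, mevalonate diphosphate decarboxylase, had 22.2 and 34.3 CPM at ZT2, 22.9 and 18.7 at ZT6, 26.8 and 26.5 at ZT10, 43.8 and 39.4 at ZT14, 98.3 and 60.3 at ZT18, and 48.6 and 41.6 at ZT22 in HepKO. The ZT18 pair stood above all other HepKO libraries, and the 6 libraries of ZT14 to 22 above the 6 of ZT2 to 10. Its amplitude was 0.88 ± 0.10 at ZT18.3 in HepKO and 0.67 ± 0.23 in HepWT, where the rhythm did not pass (adjusted p = 0.127; adjusted p of the difference 0.569). Sqle, squalene epoxidase, cycled with 0.68 ± 0.08 at ZT17.8 in HepKO, beside 0.43 ± 0.14 in HepWT, which did not pass (adjusted p = 0.0797; adjusted p of the difference 0.463).

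Fatty acid and triglyceride synthesis also peaked at night. Of 24 genes, 13 cycled in HepKO (54.2%) and 19 in HepWT, 12 in both, and 1 rhythm of the 24 differed, beside 1.49% of all genes. The median peak of the 13 was ZT19.3, and the count was 8 without the first ZT6 library, 7 without the first ZT18 library and 1 without the 5 libraries of lower depth. Fasn, fatty acid synthase (chr11:120805846-120824547, minus strand), had 517 and 764 CPM at ZT2, 407 and 412 at ZT6, 349 and 379 at ZT10, 527 and 968 at ZT14, 1987 and 1638 at ZT18, and 933 and 761 at ZT22 in HepKO. The ZT18 pair was highest in HepKO, 4.98 times the ZT10 mean, and also in HepWT at ZT18, with 2898 and 1888 CPM. The amplitude was 1.03 ± 0.14 in HepKO and 1.06 ± 0.16 in HepWT (adjusted p of the difference 0.989).

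Thrsp, a lipogenic factor, cycled with 1.51 ± 0.14 at ZT19.1 in HepKO and 1.96 ± 0.23 at ZT17.0 in HepWT, and Elovl6, a fatty acid elongase, with 0.63 ± 0.08 at ZT18.8 in HepKO and 1.13 ± 0.13 at ZT17.3 in HepWT. Angptl8, a feeding-induced inhibitor of lipoprotein lipase, and G0s2, an inhibitor of the lipase ATGL, had the 2 largest amplitudes among genes of at least 1 log2 CPM with a peak at ZT16 to 20. Angptl8 had 21.1 and 39.9 CPM at ZT2, 22.3 and 17.0 at ZT6, 9.96 and 12.4 at ZT10, 134 and 88.6 at ZT14, 107 and 127 at ZT18, and 86.5 and 132 at ZT22 in HepKO. All 6 HepKO libraries of ZT14 to 22 lay above all 6 of ZT2 to 10. Amplitudes were 1.71 ± 0.22 in HepKO and 1.58 ± 0.34 in HepWT for Angptl8, and 1.62 ± 0.18 in HepKO and 1.20 ± 0.29 in HepWT for G0s2 (adjusted p of the differences 0.929 and 0.822). Angptl8 overlaps Dock6 and G0s2 overlaps Lamb3, each on the opposite strand.

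Genes of fatty acid oxidation cycled in HepKO at about the rate of all genes. Of 32 oxidation genes and PPARA targets, 4 cycled in HepKO (12.5%, near the 15.7% of all genes) and 11 in HepWT, and the HepKO count was 7 without the first ZT14 library. Cpt1a, the entry step of mitochondrial oxidation (chr19:3322334-3385733, plus strand), had 199 and 181 CPM at ZT2, 234 and 223 at ZT6, 435 and 378 at ZT10, 243 and 309 at ZT14, 185 and 157 at ZT18, and 172 and 163 at ZT22 in HepKO. The ZT10 pair was highest, and the peak was ZT10.2 in HepKO and ZT10.1 in HepWT, with amplitudes of 0.59 ± 0.08 and 0.77 ± 0.07. The lipase inhibitor Angptl4 peaked at ZT9.4 (0.94 ± 0.23) and lost its call without either ZT10 library (0.746 and 0.843). Plin5, a coat protein of lipid droplets, peaked at ZT16.6 (0.55 ± 0.07), and Pdk4, a kinase that restrains glucose oxidation, at ZT21.9 (0.70 ± 0.16). The call of Pdk4 was lost without any of 4 libraries and in 1 model of both genotypes (adjusted p = 0.112).

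Carbohydrate genes cycled in 9 of 20 cases in HepKO (45.0%) and 17 in HepWT. Ppp1r3b, a glycogen-targeting subunit of protein phosphatase 1, had 236 and 345 CPM at ZT2, 240 and 290 at ZT6, 308 and 274 at ZT10, 509 and 412 at ZT14, 510 and 580 at ZT18, and 472 and 520 at ZT22 in HepKO. All 6 libraries of ZT14 to 22 lay above all 6 of ZT2 to 10, with an amplitude of 0.59 ± 0.07 in HepKO and 1.51 ± 0.18 in HepWT (adjusted p of the difference 0.0515). The rhythm of Ppp1r3c, a related subunit, differed (adjusted p = 0.0066), with 1.06 ± 0.14 at ZT19.3 in HepKO and 1.35 ± 0.14 at ZT23.3 in HepWT, a peak 3.99 h earlier in HepKO. Pfkfb1, which sets fructose 2,6-bisphosphate, peaked at ZT17.6 (0.53 ± 0.07). Gluconeogenesis and FOXO targets gave 3 of 18 (16.7%, near the background), and the count was 1 in 1 model of both genotypes, 1 without the first ZT2 library or either ZT10 library and 6 without the second ZT22 library.

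Glucocorticoid-responsive genes cycled in 10 of 20 cases in HepKO and 8 in HepWT, with a median amplitude over the list of 0.57 in HepKO and 0.697 in HepWT. Lpin1, a phosphatidate phosphatase (chr12:16535669-16610966, minus strand), had 46.0 and 45.0 CPM at ZT2, 71.8 and 69.7 at ZT6, 201 and 194 at ZT10, 277 and 189 at ZT14, 77.3 and 61.3 at ZT18, and 69.4 and 79.2 at ZT22 in HepKO. The 4 libraries of ZT10 and ZT14 stood apart from the other 8, and the amplitude was 1.10 ± 0.15 at ZT12.7 in HepKO and 1.63 ± 0.35 at ZT14.3 in HepWT. Mt1, a metallothionein close in sequence to Mt2, peaked at ZT10.4 with 1.61 ± 0.22, and Fkbp5, a chaperone of the glucocorticoid receptor, at ZT14.5 with 0.90 ± 0.14. The call of Mt1 was lost in 1 model of both genotypes (adjusted p = 0.065). Tat, tyrosine aminotransferase, peaked at ZT18.1 with 0.68 ± 0.07 in HepKO, beside 0.43 ± 0.16 in HepWT, which did not pass (adjusted p = 0.128; adjusted p of the difference 0.764).

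Growth-related genes shared the night. Ribosome biogenesis genes cycled in 12 of 30 cases in HepKO (40.0%) and 22 in HepWT, 10 of the 12 with a peak at ZT16 to 20, whereas cytosolic ribosomal protein genes did so in 2 of 76 (2.63%, below the background) in HepKO and 0 in HepWT. The 2 ribosomal protein genes were Rpl7a (0.13 ± 0.03) and Rpl10a (0.16 ± 0.04), and the count ran from 0 without the second ZT2 or first ZT6 library, and in 1 model of both genotypes, to 4 without the first ZT14 library. Nolc1, a nucleolar phosphoprotein, cycled with 0.76 ± 0.09 at ZT17.3 in HepKO and 1.00 ± 0.13 at ZT17.8 in HepWT, and Mybbp1a, Nop2 and Rrp12 peaked at ZT17.0 to 17.6. Polyamine genes gave 6 of 10 in each genotype (60.0%, beside 15.7% of all genes in HepKO and 22.4% in HepWT). Odc1, ornithine decarboxylase, and Srm, spermidine synthase, peaked at ZT19.1 (0.70 ± 0.09) and ZT17.4 (0.71 ± 0.09) in HepKO.

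Tubulins and replication factors followed later in the night. Tubulins cycled in 7 of 10 cases in HepKO and 6 in HepWT. Tuba4a, an alpha-tubulin (chr1:75214228-75219865, minus strand, overlapping Stk16), had 154 and 171 CPM at ZT2, 106 and 109 at ZT6, 79.0 and 87.9 at ZT10, 130 and 152 at ZT14, 190 and 203 at ZT18, and 204 and 187 at ZT22 in HepKO. The 4 libraries of ZT18 and ZT22 were highest and the ZT10 pair lowest, with an amplitude of 0.62 ± 0.06 at ZT20.8 in HepKO and 0.60 ± 0.07 at ZT22.7 in HepWT (adjusted p of the difference 0.196). Of 25 cell cycle genes 7 cycled in HepKO (28.0%) and 8 in HepWT, and 5 of the 7 were subunits of the MCM replicative helicase.

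Mcm6 (chr1:128331590-128359664, minus strand) had 21.4 and 21.8 CPM at ZT2, 18.3 and 20.7 at ZT6, 6.82 and 9.20 at ZT10, 7.12 and 6.76 at ZT14, 18.5 and 18.0 at ZT18, and 30 and 27.6 at ZT22 in HepKO. The 4 libraries of ZT10 and ZT14 were far below the other 8, and the peak was ZT24.0 with an amplitude of 0.99 ± 0.11 in HepKO. In HepWT the 2 libraries of a time were far apart at ZT2 (10.3 and 29.2 CPM), ZT18 (8.58 and 26.3 CPM) and ZT22 (6.74 and 36.1 CPM), and the rhythm did not pass (0.89 ± 0.28, adjusted p = 0.0807; adjusted p of the difference 0.879). Mcm2, Mcm3 and Mcm4 peaked between ZT22.5 and ZT22.7 in HepKO with amplitudes of 0.88 ± 0.11, 0.81 ± 0.10 and 0.58 ± 0.09.

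**Figure D4:**
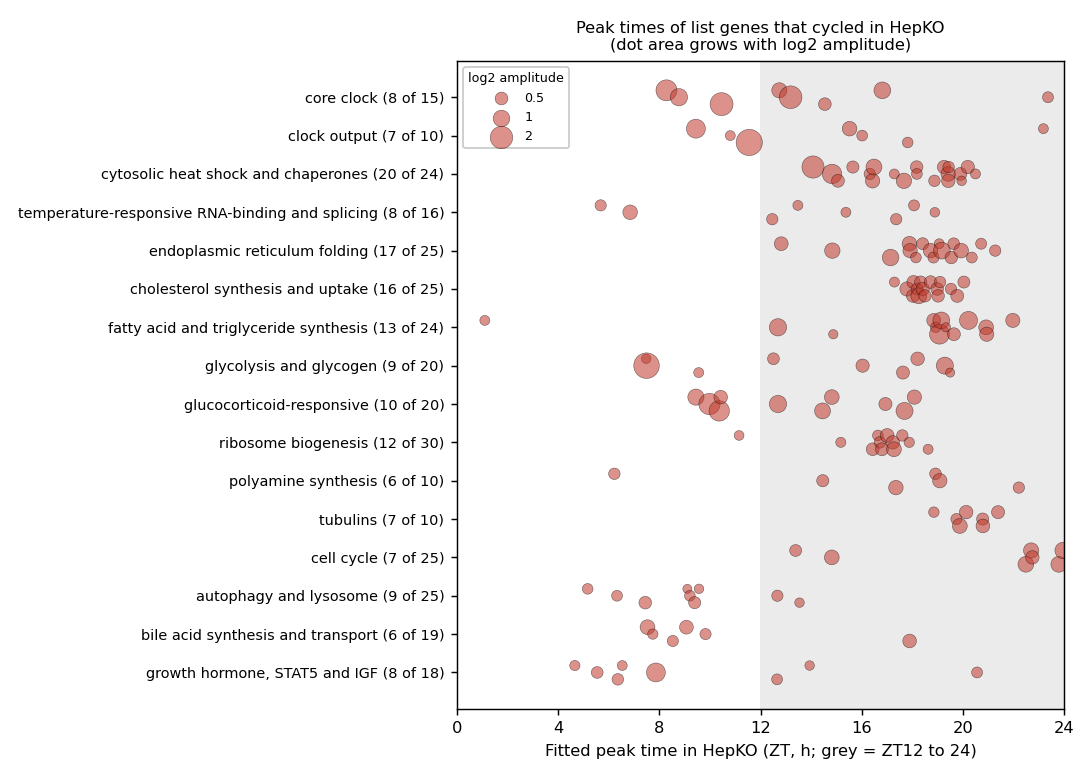
Fitted peak time in HepKO (x axis, ZT in h) of every gene that cycled in HepKO in 16 gene lists (y axis, with the number called of the number tested); each dot is a gene, its area grows with the log2 amplitude, and grey marks ZT12 to 24. Chaperone, cholesterol, ribosome biogenesis and tubulin genes gather at night, and autophagy, bile acid and growth hormone genes mainly before ZT12.

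Genes of autophagy and of bile acid transport peaked mainly between ZT4 and ZT12. Of 25 autophagy and lysosome genes, 9 cycled in HepKO (36.0%) and 13 in HepWT. The HepKO peaks fell at ZT4 to 8 in 3 genes, ZT8 to 12 in 4 and ZT12 to 16 in 2, with a median of ZT9.2. The count was 6 in 1 model of both genotypes. Gabarapl1, a membrane-anchored ATG8 protein (chr6:129533160-129542346, plus strand), had 216 and 193 CPM at ZT2, 253 and 230 at ZT6, 242 and 267 at ZT10, 180 and 198 at ZT14, 122 and 129 at ZT18, and 163 and 141 at ZT22 in HepKO. The 4 libraries of ZT6 and ZT10 were highest and those of ZT18 lowest. The rhythm differed between genotypes, with 0.49 ± 0.05 at ZT7.4 in HepKO and 1.00 ± 0.07 at ZT6.5 in HepWT (adjusted p of the difference 0.00443). Atg2a and Wipi1 peaked at ZT9.2 and ZT9.4, and Atg14 at ZT5.2.

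Bile acid synthesis and transport gave 6 of 19 genes in HepKO (31.6%) and 10 in HepWT, with 2 HepKO peaks at ZT4 to 8, 3 at ZT8 to 12 and 1 at ZT16 to 20. Abcg8, which with Abcg5 forms the sterol exporter into bile (chr17:84676302-84700333, plus strand), had 74.3 and 77.7 CPM at ZT2, 142 and 104 at ZT6, 113 and 123 at ZT10, 70.8 and 77.0 at ZT14, 42.5 and 42.4 at ZT18, and 60.2 and 53.0 at ZT22 in HepKO. The 4 libraries of ZT6 and ZT10 lay above all others, opposite in time to cholesterol synthesis, with 0.75 ± 0.06 at ZT7.5 in HepKO and 1.23 ± 0.12 at ZT8.3 in HepWT (adjusted p of the difference 0.157). Its partner Abcg5 peaked at ZT9.1 (0.62 ± 0.06), and the 2 genes overlap at their divergent starts. The phospholipid exporter Abcb4 and the uptake carrier Slco1b2 peaked at ZT9.8 and ZT8.5 (0.34 ± 0.05 each).

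In the growth hormone, STAT5 and IGF list 8 of 18 genes cycled in HepKO (44.4%) and 6 in HepWT, 5 of the 8 with a peak at ZT4 to 8, and the count was 5 without the second ZT10 library and 4 in 1 model of both genotypes. Jak2, the kinase of the growth hormone receptor (chr19:29251828-29313080, plus strand), had 28.5 and 28.4 CPM at ZT2, 33.6 and 33.5 at ZT6, 31.7 and 31.3 at ZT10, 22.2 and 24.3 at ZT14, 19.2 and 19.9 at ZT18, and 24.5 and 22.9 at ZT22 in HepKO. All 6 libraries of ZT2 to 10 lay above all 6 of ZT14 to 22, although the change was only 1.72-fold, with 0.38 ± 0.04 at ZT6.4 in HepKO and 0.26 ± 0.06 at ZT6.0 in HepWT. The rhythm of Stat5b, the main transcription factor of the pathway in liver, differed between genotypes (adjusted p of the difference 0.00838). Its fitted peak was ZT5.5 (0.40 ± 0.05) in HepKO and ZT3.0 (0.67 ± 0.06) in HepWT, and the test takes peak and amplitude together.

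Among genes of at least 1 log2 CPM, the largest amplitudes around dusk belonged to Mfsd2a, a lysophospholipid carrier (1.49 ± 0.22 at ZT14.0), Hspa1b, Noct, a phosphatase known as nocturnin (1.33 ± 0.20 at ZT14.8), and Zfp9, a zinc finger protein (1.31 ± 0.27 at ZT15.3). Noct had 1.75 and 2.09 CPM at ZT2, 4.33 and 5.54 at ZT6, 8.82 and 10.6 at ZT10, 26.7 and 17.8 at ZT14, 8.07 and 9.95 at ZT18, and 6.92 and 10.7 at ZT22 in HepKO, against 48.1 and 43.4 CPM at ZT14 in HepWT. Both ZT14 libraries were above all others in HepKO, and the rhythm was 2.05 ± 0.19 in HepWT (adjusted p of the difference 0.461). Early in the day Osgin1, an oxidative stress-induced gene, peaked at ZT2.9 (0.70 ± 0.11), the interferon-induced Gbp10 at ZT1.5 (0.96 ± 0.15) and the immediate early factor Egr1 at ZT3.4 (2.23 ± 0.46). Egr1 had 19.0 and 27.1 CPM at ZT2 and 0.287 to 0.937 CPM at ZT14 and ZT18, but its pairs differed at ZT10 (1.63 and 11.5 CPM) and ZT22 (10.7 and 1.96 CPM). Foxq1, a forkhead factor, peaked at ZT6.9 (1.85 ± 0.30) with 56.8 and 5.46 CPM in its 2 ZT2 libraries. Saa2, an acute phase protein, owed its amplitude of 2.46 ± 0.75 to 1 library, the second of ZT6, with 348 CPM against 27.6 CPM in the first and 2.2 to 22 CPM at other times. Without that library its amplitude was 0.65 and not called, and the call was also lost without any of 7 others. That library also had the highest sum of cholangiocyte markers (158.4 CPM, against a HepKO median of 61.88) and of Kupffer cell markers (493.4 against 340.9), and their part in its Saa2 level was not tested.

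Smaller groups of metabolic and structural genes were spread over the day. In the NAD list 7 of 15 genes cycled in HepKO (46.7%) and 6 in HepWT, among them Acmsd, which diverts tryptophan breakdown away from NAD, at ZT21.4 (0.86 ± 0.12 in HepKO). Urea cycle and amino acid genes gave 9 of 27 in HepKO (33.3%) and 13 in HepWT, with 6 of the 9 peaks at ZT16 to 20. The urea cycle enzymes Asl and Arg1 peaked at ZT19.6 (0.39 ± 0.05) and ZT19.4 (0.30 ± 0.06) in HepKO. Cytoskeletal targets of SRF gave 6 of 18 in HepKO (33.3%) and 8 in HepWT, with the cytoplasmic actins Actg1 at ZT17.3 (0.65 ± 0.07) and Actb at ZT22.4 (0.25 ± 0.04).
Among nuclear receptors and coregulators 6 of 19 cycled in HepKO (31.6%) and 12 in HepWT, and the HepKO count was 2 without the first ZT18 library and 3 without the second ZT18 or first ZT10 library. Esrra, a regulator of mitochondrial genes, peaked at ZT16.2 (0.33 ± 0.04) in HepKO. In the acute phase list 5 of 25 cycled in HepKO (20%, near the background) and 6 in HepWT, and the HepKO count was 3 without either ZT18 library and 8 without the first ZT14 library. The 5 were Hamp, the iron hormone hepcidin, the fibrinogen chains Fga, Fgb and Fgg, and Saa2.

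Other functions had shares of cycling genes below or near that of all genes in HepKO. None of 41 respiratory chain genes was called by edgeR (adjusted p = 0.053 for Ndufc2, the smallest of the list), 7 had an unadjusted p below 0.05, and the count was 2 by DESeq2 and 0 by limma-voom. In HepWT 1 of the 41 cycled. Proteasome genes gave 2 of 30 in HepKO (6.67%), Psmd14 and Psmc4, and 5 in HepWT. Xenobiotic metabolism gave 2 of 30 in HepKO (6.67%) and 10 in HepWT. The HepKO genes were the cytochromes Cyp2b10 (0.55 ± 0.13) and Cyp3a25 (0.26 ± 0.07), and both calls were lost without either ZT2 library, the first ZT6 library or the first ZT18 library. The glutathione and NRF2 list gave Gclc and Gss, 2 of 14 in HepKO (14.3%, near the 15.7% of all genes) and 3 in HepWT. The HepKO count was 1 without the second ZT2 library, the first ZT14 library or either library of ZT6, ZT18 or ZT22. Gclc, a subunit of the rate-limiting enzyme of glutathione synthesis, peaked at ZT4.2 (0.49 ± 0.08).

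The genotypes were then compared for genes that cycled in HepKO. Of the 2720, 1642 also cycled in HepWT, which is 60.4% of the HepKO genes and 42.5% of the HepWT genes. Their peak times differed by a median of -0.27 h, HepKO minus HepWT, with an interquartile range of -1.38 to 0.919 h, and 1566 of them (95.4%) peaked within 4 h. Amplitude was lower in HepKO for 1192 of these genes and higher for 450, with medians of 0.319 in HepKO and 0.393 in HepWT. A test of the difference itself passed in 258 of the 17275 genes (1.49%), 244 with a lower fitted amplitude in HepKO (1.41%) and 14 with a higher one (0.081%). That test takes cosine and sine together, so its p does not separate a change of amplitude from a change of peak time. Among the 2720 genes, 95 differed, 83 with a lower and 12 with a higher amplitude in HepKO. The remaining 1078 HepKO genes were not called in HepWT, yet 424 of them had an unadjusted p below 0.05 there, and only 7 differed by the test. Being called in 1 genotype alone was thus rarely a tested difference. The difference test could miss small differences, since on simulated counts it called 53% of genes with amplitude 0.5 in HepKO and 0 in HepWT. Those rhythms were placed only in genes of higher count, so the share may be lower for other genes. A difference that did not pass is therefore not shown to be absent. Since the 2720 were chosen by their HepKO fit, their HepKO amplitudes are high by selection.

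Tubb2a, a beta-tubulin, and Loxl4, a lysyl oxidase, were among the 6 called genes with the largest fitted loss of amplitude. Loxl4 had 57.6 and 67.9 CPM at ZT2, 35.5 and 35.3 at ZT6, 53.7 and 29.9 at ZT10, 49.6 and 47.1 at ZT14, 77.6 and 93.1 at ZT18, and 62.2 and 73.7 at ZT22 in HepKO, and 0.906 to 18.4 CPM over the day in HepWT. The genotypes did not overlap at any time, and the rhythm was 0.57 ± 0.10 at ZT20.2 in HepKO and 1.91 ± 0.08 at ZT1.2 in HepWT (adjusted p of the difference 1.18e-07). Tubb2a, which shares sequence with Tubb2b, cycled with 0.54 ± 0.09 at ZT21.4 in HepKO and 2.04 ± 0.17 at ZT23.5 in HepWT (adjusted p of the difference 0.000522). Gains were small: Anks4b, an ankyrin repeat protein, cycled with 0.59 ± 0.06 at ZT18.6 in HepKO and 0.26 ± 0.08 at ZT15.2 in HepWT (adjusted p of the difference 0.0399), and this difference was lost in 10 of the 24 fits that left out a library, with adjusted p up to 0.0901. Its level was 92.9 and 98.8 CPM at ZT18 and 40.4 and 44.2 CPM at ZT10 in HepKO, against 108 and 105 CPM at ZT18 and 80.3 and 104 CPM at ZT10 in HepWT.

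**Figure D5:**
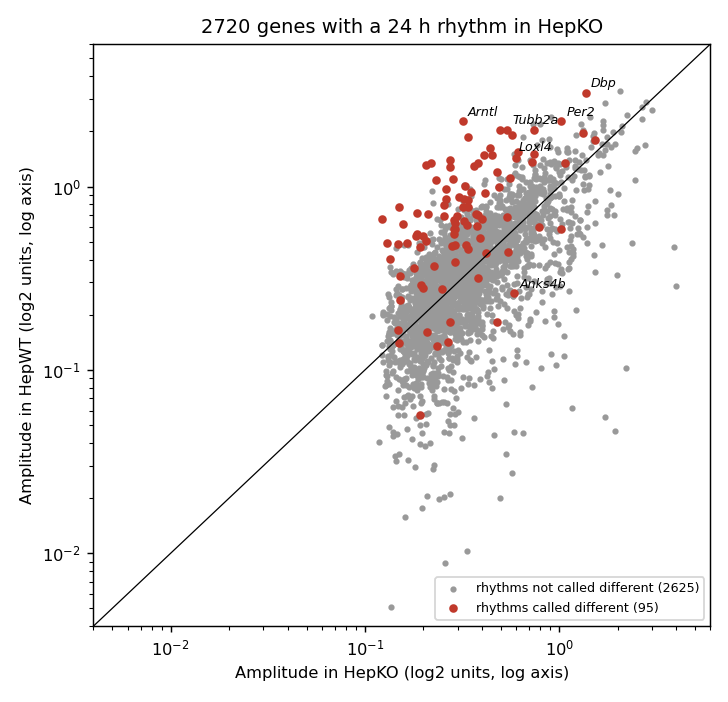
Fitted amplitude in HepKO (x axis) against that in HepWT (y axis), both in log2 units on log axes, for the 2720 genes that cycled in HepKO; the line marks equal amplitudes. Red points are the 95 genes whose rhythm differed between genotypes, 83 of them above the line.

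Markers of the cell types that a liver sample can hold gave few called rhythms by edgeR in HepKO. None of 7 hepatocyte markers cycled by edgeR or DESeq2, and 2 had an unadjusted p below 0.05. In the test over 6 times, 2 of the 7 passed. The HepKO time means of Pck1 were 5.01-fold apart, and those of Hnf4a, the next widest, 1.56-fold. None of 10 Kupffer cell markers cycled by edgeR, 1 did by DESeq2 and 1 had an unadjusted p below 0.05. By edgeR, 1 of 8 cycled in the endothelial list (Cdh5) and in the stellate cell list (Pdgfrb). In the endothelial list 3 cycled by DESeq2 and 2 by limma-voom. There, 5 of 8 had an unadjusted p below 0.05, beside 5343 of all 17275 genes. In the stellate cell list 1 of 8 had such a p, and 1 cycled by DESeq2. The Cdh5 call was lost without any of 7 libraries. The summed hepatocyte markers, which include Alb, ran from 35995 to 54119 CPM in HepKO and from 73391 to 102220 CPM in HepWT without overlap. That gap lay in Alb, with 18407 to 34501 CPM in HepKO and 55886 to 82180 CPM in HepWT. The 6 other hepatocyte markers overlapped between genotypes, and their sum ran from 17588 to 21518 CPM in HepKO and from 17505 to 22189 CPM in HepWT. Summed endothelial markers ran from 360.7 to 426.3 CPM in HepKO and from 402 to 454.8 CPM in HepWT, and the neutrophil marker Ly6g was at 0 in all HepKO libraries. Exocrine pancreas markers reached 27.5 CPM in the first HepKO library of ZT22, against a HepKO median of 0.2506 CPM. The part of cell makeup in the rhythms was not tested.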

How the data were processed

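Gene counts of 24 liver libraries were analysed. The deposited values are whole-number counts per gene with no normalization. Libraries were total RNA, stranded and ribosome-depleted, per the labels' protocols. Reads were aligned with STAR 2.4.0i to mm10, per the submitters' processing notes; the counting tool, annotation and strand setting were not stated there, and 0 columns were left unused. Total counts ranged from 12997689 to 30677807, and the shallower libraries carry more counting error.

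Genes were kept by filterByExpr (minimum count 10, total 15; 17275 of 35304) and scaled by TMM over all 24 libraries. A 24 h cosine and sine, a term per time, or a further 12 h pair was fitted to the HepKO libraries with 9, 6 and 7 residual degrees of freedom, and the difference between genotypes to all 24 with 18, by edgeR 4.0.16 (R 4.3.3; quasi-likelihood F test, two-sided, Benjamini-Hochberg below 0.05). DESeq2 1.42.0, limma 3.58.1, other filters and scalings, a replicate block, a model of both genotypes and omission of each library were tried. On simulated counts of 17275 genes, the HepKO rhythm test called 88% of genes of amplitude 0.5 and 99% of amplitude 1, and 5.08% of its calls were false. For the 12 h component of amplitude 0.5 these shares were 84% and 8.7% and, for the 6 times, 80% of 24 h rhythms of amplitude 0.5 and 10.9%. The rhythm difference test called 53% of genes of amplitude 0.5 against 0 and 97% of amplitude 1 against 0, and 4.46% of its calls were false. Simulated rhythms were placed only in genes with mean counts well above the filter minimum of 10. The called HepKO genes had a median amplitude of 0.313, below those simulated. The shares called are therefore not known for genes of lower count or smaller amplitude.

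Members and gene lists were chosen with earlier results of these data known. Genes were named by rule: the clock lists, up to 4 called genes of smallest p per functional list, the 5 largest amplitudes in each 4 h peak window (mean log2 CPM of at least 1), the 6 largest gains and losses against HepWT, the 5 smallest p for the 12 h and non-cosine patterns, and the genes next to the threshold. A few named genes are not reported here. Others are said to be named after their values were seen or complete a count. A list's median peak is the member peak nearest in sum to the others. Positions are from GENCODE M21 on GRCm38 (17251 genes matched) and promoters from RefSeq on GRCm38.p6 (11407 matched).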

Additional observations from a re-analysis of the deposited data

Results flagged for a closer look

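In 25 of the named genes, the 24 h rhythm differed between HepKO and HepWT in the test of the difference itself. Of these, 12 were named because they had a called difference, so their number says nothing about the rest, and 13 were named by another part of the rule. Among clock and clock output genes the adjusted p was 0.00207 for Arntl, 0.0181 for Clock, 1.54e-08 for Npas2, 0.0041 for Per2, 0.00717 for Per3 and 5.82e-08 for Cry1. It was 0.00172 for Dbp, 0.000435 for Tef, 0.012 for Wee1, 0.000141 for Nampt and 0.00321 for Lonrf3. Wee1, a kinase that restrains entry into mitosis, had an amplitude of 0.23 in HepKO, which was not called. Nampt, which makes a precursor of NAD, peaked at ZT17.8 with 0.28 ± 0.05 in HepKO and at ZT15.1 with 1.10 in HepWT. The difference for Clock was lost without the second HepWT library of ZT10 (adjusted p = 0.051).

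In the functional lists the adjusted p was 0.0066 for Ppp1r3c, 0.00443 for Gabarapl1, 0.00838 for Stat5b, 0.0137 for the receptor Ppard and 0.000522 for Tubb2a. Ppard peaked at ZT20.5 with 0.60 in HepKO and at ZT22.5 with 1.44 in HepWT. Among the genes with the largest losses and gains it was 1.18e-07 for Loxl4, 0.0143 for 4930459C07Rik, 0.0399 for Anks4b, 0.0417 for Haus8, 0.00859 for 2010003K11Rik, 0.0441 for Ints8, 0.0255 for Ptprd and 0.0381 for Ddo. It was 0.0421 for Gm15611, which was named for its amplitude in the window of ZT4 to 8. Of 24 fits that each left out 1 library, the difference was lost in 10 for Anks4b, 12 for Ddo, 16 for Gm15611, 16 for Haus8, 20 for Ints8 and 7 for Ptprd. No group held enough libraries to look for a single outlying library.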

How the results depend on the processing

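The counts of called genes (HepKO rhythm, HepKO change over 6 times, HepKO 12 h component, HepWT rhythm and rhythm difference) moved by more than 1.5 times under these settings. At an adjusted p below 0.01, 838 genes cycled in HepKO, 748 changed over the 6 times, 10 had a 12 h component, 1662 cycled in HepWT and 116 differed. Without the 5 HepKO libraries of lower depth 76 cycled and 66 differed. With the replicate 1 or the replicate 2 libraries alone, 1 and 1 cycled in HepKO, and 559 and 359 in HepWT. DESeq2 gave 298 for the 12 h component and 574 for the difference. With no filter the counts were 4416 over the 6 times, 954 for 12 h and 1371 for the difference. The rhythm count of HepKO stayed within 1.5 times under the remaining settings, with 3575 by DESeq2, 2775 by limma-voom, 3852 with no filter and 2471 in 1 model of both genotypes, which ended 27 calls of named genes.

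Leaving out each library in turn gave 1830 to 2783 HepKO rhythms, 1141 to 2728 genes changed over 6 times, 8 to 132 with a 12 h component, 2947 to 3913 HepWT rhythms and 172 to 309 differences. The amplitude difference of 2010003K11Rik (HepKO minus HepWT) ran from -0.0039, a reversal, without the first HepKO library of ZT18 (adjusted p = 0.041) to 0.279 without the second HepWT library of ZT10.

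With the replicate number as a block, the counts were 2354 for the HepKO rhythm, 4239 for the HepWT rhythm, 1620 for the HepKO change over 6 times, 25 for the 12 h component and 307 for the rhythm difference. Deviations of same-numbered libraries correlated at -0.138 to 0.0792 in HepKO (0 of 15 pairs over 0.1) and at -0.0104 to 0.299 in HepWT (median 0.169, 11 of 15 over 0.1). Since not every pair did so, the numbers were not taken to pair the libraries. With the block, the HepWT rhythms of Sqle (adjusted p = 0.0277), Dnajb9 (0.0445) and Depp1 (0.0471) passed, and no other HepWT call of a named gene changed. The causes of these movements were not tested beyond the loss of libraries by construction.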

Other observations

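By annotated class, 24 h rhythms in HepKO were called in 2485 of 13433 protein-coding genes (18.5%), 66 of 458 lincRNA genes (14.4%), 32 of 555 antisense genes (5.77%) and 28 of 955 processed pseudogenes (2.93%). Of the mitochondrially encoded genes, mt-Cytb was called (amplitude 0.24 at ZT18.9, adjusted p = 0.0253 by edgeR), and mt-Co1, mt-Nd1 and mt-Nd4 were not (adjusted p of 0.287, 0.501 and 0.636).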
